A study of Mus musculus with 2 samples.

Results

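The inner enamel epithelium is the layer of the enamel organ that lies against the dental papilla, and its cells pass through a preameloblast stage before they secrete enamel. Cells of these stages made up 2257 of the 30019 barcodes from tooth germs of newborn mice, 1286 of 13990 in the control library and 971 of 16029 in the library with Edar deleted in epithelium. The germs were mandibular first molars of C57BL/6 mice, dissociated into single cells whose RNA was counted with the BD Rhapsody platform. The control was Edarfl/fl, with loxP sites around part of Edar on both alleles and no Cre. The deletion group was K14cre;Edarfl/fl, which carries the same floxed alleles and a Cre that acts in keratin 14 epithelium, so oral and dental epithelium are both targets. Each group was 1 library, and the labels state neither how many germs were pooled nor their sex.

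Members were chosen on counts of unique molecular identifiers (UMIs, which mark single captured transcripts). A barcode needed at least 500 genes and at most 20% mitochondrial UMIs, and at least 3 UMIs in all of the epithelial genes Epcam, Cdh1, Krt5, Krt14 and Perp. Col1a1, Col1a2 and Col3a1 together could reach at most 100 UMIs per 10000, and Amelx, Ambn and Enam had to stay under 100 per 10000, which sets aside mesenchyme and cells that already make enamel. Shh, Vwde, Igfbpl1 and Vwa2 together needed at least 3 UMIs, and Edar had to have 0. The levels of these genes therefore describe the choice and are no finding. Of 13431 control cells that passed the quality limits, 2273 had the epithelial genes, 2158 also met the collagen limit, 1986 the enamel limit, 1481 the marker genes and 1286 the absence of Edar. For the deletion library these numbers were 15487, 1817, 1662, 1550, 1053 and 971.

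Dental epithelium and the papilla beneath it exchange Hedgehog, FGF, Wnt and BMP signals while the inner enamel epithelium divides, folds into cusps and stops dividing at the cusp tips. Cells that have left the cell cycle elongate, move their nuclei away from the papilla, and switch on genes of enamel proteins under control of factors such as Sp6, Satb1, Dlx3 and Msx2. Edar is the receptor of ectodysplasin and acts through Edaradd and NF-kB. It is best known in teeth for its role in the enamel knot, the signalling centre that sets cusp shape.

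The libraries differed in ways other than genotype. Member cells had medians of 4435.5 UMIs and 2039.5 genes in the control and of 3599 UMIs and 1715 genes in the deletion library, with median mitochondrial shares of 6.65% and 7.91%. Cells with Xist, the transcript of the inactive X of females, and no Y-linked UMI were 17.7% of control and 50.6% of deletion members. Cells with Y-linked UMIs and no Xist were 41.8% and 15.1%. The libraries shared 4 barcodes, none of them among members, and Scrublet called 21 doublets among the members of each. Levels below are UMIs of a gene scaled to a common total of UMIs in the set (CPM), which compare 1 gene between sets and not genes with each other. Ratios are log2 of (CPM + 5), deletion over control, and all intervals are at 95% and cover counting error only. With 1 library per group there is no replicate check and no test across animals.

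The label was checked against genes outside the rule. Sp6, a transcription factor needed for ameloblasts, stood at 993 CPM in control and 891 CPM in deletion members, and at 255 and 266 CPM in epithelial cells of the same filter with under 3 marker UMIs. Enamel-rich cells, those at 100 or more enamel UMIs per 10000, had 1459 and 967 CPM. Satb1 had 502 and 392 CPM in members and 116 and 116 CPM in epithelium with under 3 marker UMIs. The list of lineage regulators that holds both genes separated the sets much less. It summed to 4374 and 3677 CPM in members and to 3493 and 3048 CPM with few marker UMIs. Msx2, also of that list, stood near the same level in both sets. Of stratum intermedium genes, Notch1 had 25.5 and 28.6 CPM in members against 54.5 and 60.3 CPM with few marker UMIs, Alpl 65.0 and 66.7 CPM against 227 and 214 CPM, and Cldn10 6.29 and 4.52 CPM against 23.7 and 30.4 CPM. The list as a whole did not separate the sets, with sums of 942 and 865 CPM in members and 1134 and 1068 CPM with few marker UMIs, and Cd24a at 761 and 675 CPM against 495 and 474 CPM. The oral keratins were almost absent from control members, with 3 UMIs of Krt4 and 2 of Krt13, while deletion members held 67 and 53. Of these Krt4 UMIs, 57 came from 1 cell.

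All of the 4 chosen marker genes were found in 51.9% of control and 43.8% of deletion members, and only 1 of them in 5.21% and 4.12%. A median control member held 14 marker UMIs, and a median deletion member 11. Igfbpl1 gave 29.5% and 30.6% of them, Shh 17.3% and 13.3% and Vwa2 15.1% and 17.5%, with Vwde giving the rest. Of endothelial cells, which should lack these genes, 0.48% and 0.287% held Shh and 2.16% and 2.20% Vwde. Igfbpl1 was found in 0.72% and 0.766% of them and Vwa2 in 0.48% and 0.766%, at median depths of 3290.5 and 3124 UMIs. Endothelial cells, here and below, had at least 3 UMIs of Pecam1, Cdh5, Kdr, Emcn and Cldn5 together. They also had no UMI of the epithelial genes of the rule. Barcodes with stray epithelial RNA were thus partly left out, so such shares give a low estimate of background. Just outside and inside the marker threshold, with 2 and 3 UMIs, the control had 70 and 72 cells and the deletion library 88 and 78. Their Sp6 level was 466 and 591 CPM among control cells and 501 and 471 CPM among deletion cells, against 1072 and 987 CPM in the 853 and 570 cells with at least 10 marker UMIs. The epithelial threshold had 36 control cells just outside and 55 just inside it, and 79 and 81 deletion cells. At the enamel limit 36 and 25 members stood between 50 and 100 per 10000, and 23 and 9 cells lay above it at up to 200. At the collagen limit the same bands held 101 and 61 members and 30 and 44 cells outside.

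**Figure D1:**
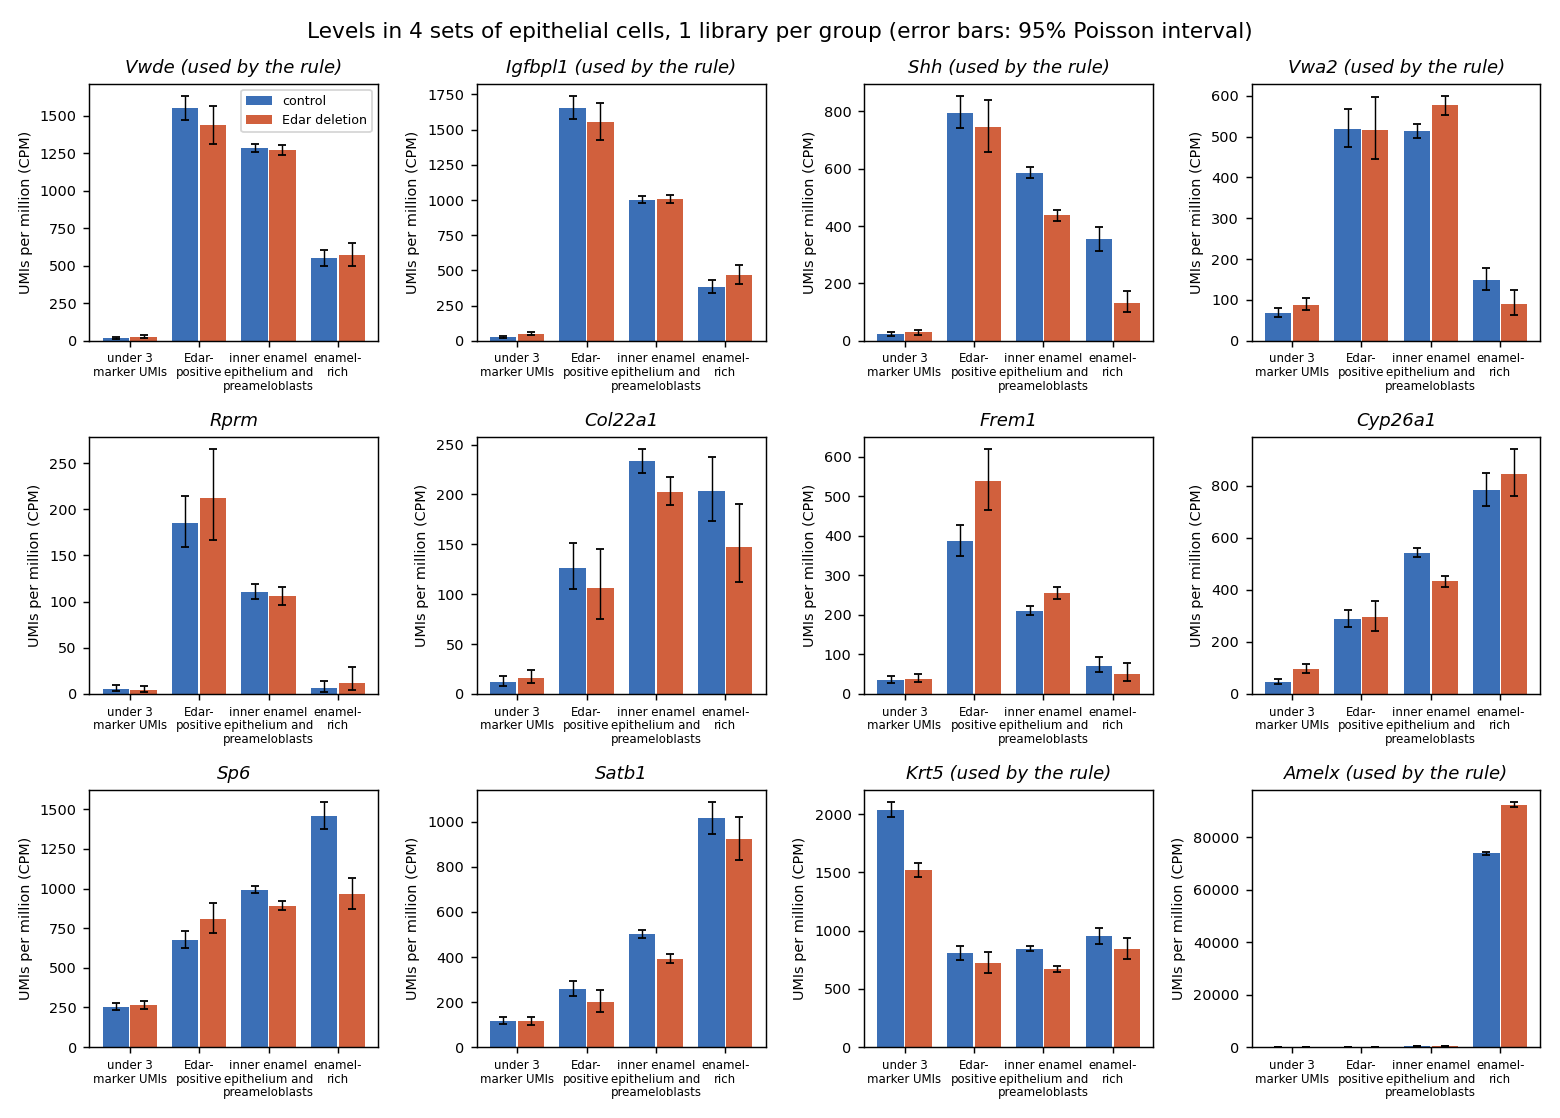
Levels of 12 genes (CPM, linear axis) in 4 sets of epithelial cells of each library: cells with under 3 marker UMIs, Edar-positive cells, members and enamel-rich cells. Error bars are 95% Poisson intervals of the summed counts. In the control Sp6 stands at 255 CPM in cells with few marker UMIs, 993 CPM in members and 1459 CPM in enamel-rich cells.

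Genes outside the rule that set members apart from epithelium with few marker UMIs, in both libraries, were led by Rprm, Col22a1, Gpha2, Susd4 and Frem1. These are descriptions, since the sets were cut on correlated counts. Rprm, which encodes the cell cycle inhibitor reprimo, had 110 and 106 CPM in members, 5.55 and 4.44 CPM in epithelium with few marker UMIs, 6.17 and 12.3 CPM in enamel-rich cells and 185 and 212 CPM in Edar-positive cells. Among the epithelial sets it was lowest in cells with few marker UMIs and in enamel-rich cells. Col22a1, a collagen of tissue junctions, had 233 and 203 CPM in members, and Gpha2, a glycoprotein hormone subunit, 111 and 105 CPM against 389 and 472 CPM in enamel-rich cells. Frem1, a basement membrane protein of the Fras complex, had 210 and 256 CPM. Cyp26a1, which breaks down retinoic acid, had 543 and 432 CPM, and the homeobox gene Irx5 402 and 280 CPM. Mfge8, a secreted protein that binds integrins, had 956 and 790 CPM. The rest of the 20 leading genes were Stmn2, Srpx, Cttnbp2, Tent5a, Adcy2, Iqgap2, Arrb1, Pla2r1, Ank2, Col27a1, Sema3d and Cdk5rap3. Only Cdk5rap3 among these 20 differed 1.5-fold between libraries.

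Edar itself was measured before the last step of the rule, in cells that met every other criterion. It was found in 195 of 1481 such control cells (13.2%, exact interval 11.49 to 14.996%) and in 82 of 1053 with the deletion (7.79%, 6.24 to 9.57%). Its level was 41.1 CPM (36.7 to 46.0, 308 UMIs) and 24.4 CPM (20.03 to 29.3, 111 UMIs). After thinning every cell to 2000 UMIs the shares were 7.46% and 4.97%, and in endothelial cells 0.32% and 0.383% held an Edar UMI unthinned. Of the cells left out, 121 and 57 had 1 Edar UMI, and 74 and 25 had more. Reads of this assay come from the tail end of a transcript, and where the deleted exons lie relative to it is not stated, so the remaining UMIs need not come from intact receptor. A control member with 0 Edar UMIs is not shown to lack Edar, and the cell sets compared here therefore differ in more than the presence of the receptor.

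How far the members' share of epithelium differed depended on the limits of the rule. They were 56.6% of the 2273 epithelial control cells and 53.4% of the 1817 in the deletion library, a difference of -3.14 percentage points, with -7.51 to 1.24 points between opposite ends of the exact intervals. With any number of Edar UMIs allowed, the shares were 65.2% and 58.0%, which are -7.20 points apart (-11.5 to -2.92). With at least 5 marker UMIs the difference was -4.69 points (-9.08 to -0.29), and with at least 2 it was -1.37 points (-5.71 to 2.96). With cells thinned to 2000 UMIs it was -2.34 points (-7.53 to 2.86). With at least 1000 genes and at most 10% mitochondrial UMIs it was -1.57 points (-6.89 to 3.73). Collagens at most 20 per 10000 gave 0.73 points (-3.61 to 5.07). Among cells with Xist only the shares were 57.3% and 57.7%, and among those with Y-linked UMIs only 59.5% and 49.3%. Such shares can be set by the enzyme digestion and sieving, by the removal of red and dead cells, and by depth or the sexes of the pups, and the part of none of these was tested.

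Few genes differed 2-fold between the libraries. Of 3561 genes at 50 CPM or more in either library, 7 were higher in deletion members (0.197%) and 2 were lower (0.0562%), together 0.253%, with a 95% interval of the count ratio that excluded 1. The higher genes were Mt1, Xist, Col3a1, Hspa1a, Igfbp7, Cdk5rap3 and Fos, and the lower ones Dspp and Ddx3y. Within cells of 1 sex Xist had a log2 ratio of -0.10 and the Y-linked Ddx3y one of 0.07, and Col3a1 is a gene of the rule. Over all settings tried, Mt1 and Col3a1 stayed past 2-fold, with log2 ratios of at least 2.09 and 1.09. Cdk5rap3, Fos, Hspa1a and Igfbp7 went as low as 0.93, 0.86, 0.75 and 0.37, and Dspp as near 0 as -0.83 with cells thinned to 2000 UMIs. At 1.5-fold, 17 genes were higher (0.477%) and 13 lower (0.365%). The 10 genes added above were Egr1, Hspa1b, Fosb, Ppp1r15a, Zfp36, Ier2, Junb, Cmss1, Dusp1 and Jun. The 11 added below were Coro2a, Calb1, Tubb6, Flrt2, Tgfbr2, Diras2, Clu, Dlx3, Msx2, Slc26a2 and Fam189a2. Over the 10669 genes at 5 CPM or more the median log2 ratio was -0.06, and 38.6% had a log2 ratio above 0. A count interval above 1 was found for 7.01% and one below 1 for 15.2%, and gene lists below are read against these shares. Higher counts give narrower intervals, so a list of genes at high levels can hold more intervals that exclude 1 at the same ratios.

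**Figure D2:**
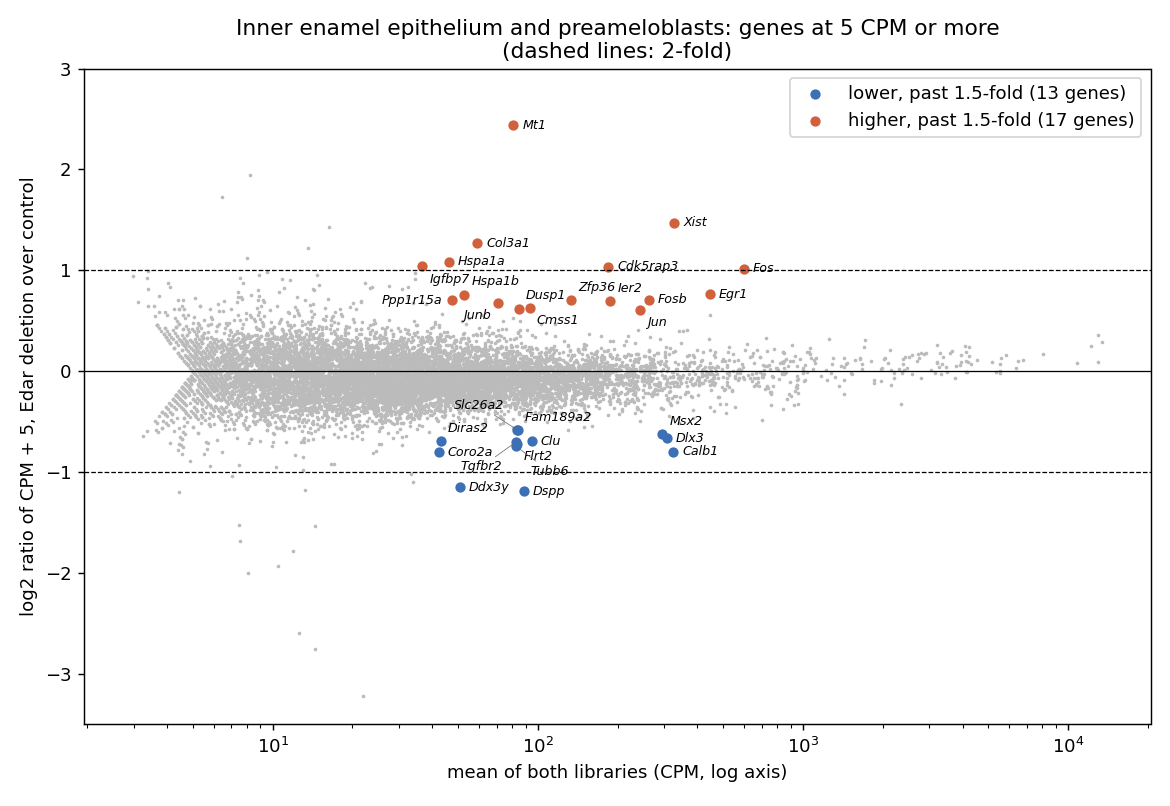
Each point is a gene at 5 CPM or more in member cells, with the mean CPM of both libraries (log axis) against the log2 ratio of (CPM + 5), deletion over control. Genes past 1.5-fold at 50 CPM or more are coloured and named, 17 above and 13 below 0, and Mt1 stands highest at 2.44.

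Mt1, a metallothionein that binds zinc and copper, had the largest ratio of the genes tested. It stood at 21.8 CPM in control members (18.3 to 25.7, 142 UMIs) and at 140 CPM in deletion members (129 to 152, 588 UMIs), a log2 ratio of 2.44 and a count ratio between 5.34 and 7.78. An Mt1 UMI was found in 4.59% of control and 27.9% of deletion members, and after thinning in 2.13% and 17.1%. Endothelial cells of the same libraries had 4.80% and 6.61%, and whether they express the gene themselves was not tested. The count rested on few cells in the control. There 1227 members had none, 42 had 1 UMI and 17 had more, and 10 cells held 59.9% of the UMIs.

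Those 17 control cells had a median of 11951 UMIs and, summed together, carried the myeloid transcripts Tyrobp and Fcer1g at 203 and 397 CPM. Fcer1g stood at 141 CPM in the 6 cells with 2 Mt1 UMIs and at 201 CPM in the 9 with 3 to 9. In the 2 cells with at least 10 it stood at 2065 CPM, so the sums do not describe each cell. In the deletion library 147 members had 1 Mt1 UMI and 124 had more, these with a median of 4626.5 UMIs, Tyrobp at 2.75 CPM and Fcer1g at 13.8 CPM. Leaving out, as a choice made after the data were seen, every cell with a UMI of a blood, endothelial or oral keratin gene raised the log2 ratio to 3.12. Neighbouring sets showed the same direction, with 0 and 86.1 CPM in enamel-rich cells, 9.27 and 131 CPM in Edar-positive cells and 101 and 214 CPM in epithelium with few marker UMIs. In endothelial cells Mt1 stood at 22.3 and 26.7 CPM. By sex the values were 24.9 and 149 CPM in cells with Xist only and 14.3 and 136 CPM in cells with Y-linked UMIs only.

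The direction of Mt2, the neighbouring metallothionein gene, was not settled by these counts. It had 170 UMIs in control and 88 in deletion members, 26.07 and 20.96 CPM with a ratio between 0.61 and 1.05, and was found in 3.97% and 4.94% of cells. Its log2 ratio of -0.26 was 0.34 with cells thinned to 2000 UMIs and 0.21 in cells with Xist only, and -0.58 with collagens at most 20 per 10000. The 17 control cells with more than 1 Mt1 UMI, which carried myeloid transcripts when summed together, had Mt2 at 484 CPM. Control members with no Mt1 UMI had 7.45 CPM. In deletion members the same groups had 77.1 and 9.59 CPM. In epithelium with few marker UMIs it had 289 and 348 CPM. The zinc-sensing activator of both genes, Mtf1, had 13.3 and 10.2 CPM. Of the 11 measured genes of metallothioneins and zinc transport, only Mt1 had an interval above 1, and 4 zinc transporter genes had one below 1. These were Slc39a8 (278 and 249 CPM), Slc39a6 (193 and 159 CPM), Slc39a14 (135 and 105 CPM) and Slc30a4 (62.0 and 43.3 CPM).

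The promoters of both metallothionein genes are shown because Mt1 had the largest ratio of the genes tested and Mt2 lies next to it. The sequences are from RefSeq on GRCm38.p6, plus strand, from 250 bases before to 30 bases after the start, at chr8:94178839-94179118 for Mt1 and chr8:94172368-94172647 for Mt2. Capitals mark the core of the metal response element, searched as TGCACNC or TGCGCNC on both strands.
Mt1: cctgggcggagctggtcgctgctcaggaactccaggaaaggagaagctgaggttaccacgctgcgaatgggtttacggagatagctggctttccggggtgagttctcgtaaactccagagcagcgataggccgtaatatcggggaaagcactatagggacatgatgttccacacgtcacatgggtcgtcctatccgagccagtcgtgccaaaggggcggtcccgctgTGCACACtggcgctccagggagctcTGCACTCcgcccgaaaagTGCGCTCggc
Mt2: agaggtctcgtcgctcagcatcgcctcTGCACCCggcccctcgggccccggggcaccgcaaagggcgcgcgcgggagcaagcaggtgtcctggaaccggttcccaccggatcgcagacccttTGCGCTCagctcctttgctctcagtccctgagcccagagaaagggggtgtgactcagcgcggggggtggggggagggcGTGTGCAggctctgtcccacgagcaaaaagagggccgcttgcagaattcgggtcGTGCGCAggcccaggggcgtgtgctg
Mt1 held 3 matches and Mt2 held 4. Of 32851 promoter windows of 300 bases, 25.7% held at least 1 match and 1.97% at least 3, and of the 3630 windows of genes at 50 CPM, 38.2% and 3.72% did. Among the 8 windows of the 7 genes that were 2-fold higher, those of Mt1 and Xist held a match. The letters thus do not separate Mt1 from Mt2, and a match is not shown to be a bound site.

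Cdk5rap3, which encodes a cofactor of the ufmylation pathway of the endoplasmic reticulum, was the only 2-fold gene that was also among the 20 genes marking the member cells. It stood at 119 CPM in control members (111 to 128, 778 UMIs) and 250 CPM in deletion members (235 to 265, 1048 UMIs), a count ratio between 1.90 and 2.30. The gene lies on the minus strand of chromosome 11 at 96907426 to 96916496 of mm10, and no annotated neighbour overlaps it among those checked. Enamel-rich cells had 13.6 and 24.6 CPM, epithelium with few marker UMIs 30.8 and 26.6 CPM and endothelial cells 15.4 and 15.2 CPM. Edar-positive cells had 81.4 and 257 CPM. The ratio was thus over 2-fold in cells with the marker genes, with or without Edar, while the contrast with the other sets was not tested.

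Cdk5rap3 transcripts were spread unevenly over members. The gene was found in 28.5% and 35.8% of them, but 5.91% and 10.1% had at least 3 UMIs, and 9 and 24 cells had at least 10. Cells with at least 3 UMIs had summed levels of S phase genes of 2387 and 2347 CPM, against 1238 and 1244 CPM in cells with none. They held little Amelx, at 18.4 and 103 CPM, against 448 and 373 CPM in cells with none. Their median depth was also higher, with 6146 and 5448.5 against 4139 and 3406 UMIs. Within cells with Xist only the level was 73.9 and 207 CPM, and with Y-linked UMIs only 137 and 319 CPM. With 3 ranges of cell cycle transcripts weighted equally, also an added choice, the log2 ratio was 0.93, just under 2-fold.

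Dspp, Calb1, Coro2a and Clu were lower past 1.5-fold, and Sox21, singled out after its values were seen, lay under the minimum level. With collagens at most 20 per 10000 the log2 ratio of Clu was -0.37, which is under 1.5-fold. Dspp is best known as the dentin sialophosphoprotein of odontoblasts and is also expressed briefly by preameloblasts. It stood at 125 CPM in control (117 to 134, 818 UMIs) and 52.2 CPM in deletion members (45.5 to 59.5, 219 UMIs), a log2 ratio of -1.19. Its UMIs were unevenly spread, which these intervals do not cover. No Dspp UMI was found in 1109 control and 892 deletion members, while 23 and 4 held at least 10. By the mean of per-cell CPM Dspp was lower past 1.5-fold but not past 2-fold. Calb1, the calcium buffer calbindin, had 414 and 236 CPM, and the transcription factor gene Sox21 48.2 and 19.8 CPM. Coro2a, which binds actin, had 55.2 and 29.5 CPM, and Clu, the chaperone clusterin, 119 and 71.4 CPM. Each of them was higher in enamel-rich cells than in members of the same library. In enamel-rich cells Dspp had 3103 and 3719 CPM, Calb1 6072 and 4971 CPM, Sox21 246 and 236 CPM, Coro2a 326 and 283 CPM and Clu 1105 and 1360 CPM.

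Dspp UMIs were also found in cells that should lack them. Endothelial cells had 109 and 54.9 CPM, with 85.2% and 87.3% of these UMIs in 10 cells, and Dspp was found in 6.48% and 3.54% of endothelial cells against 13.8% and 8.14% of members. The count ratio lay between 0.36 and 0.48 in members and between 0.43 and 0.59 in endothelial cells, and the part of free RNA or of joined cells in the value was not tested. Calb1 and Sox21 were nearly absent from endothelium, at 1.31 and 0.749 CPM and at 0.563 and 0.499 CPM. That set was chosen to hold no UMI of the epithelial genes of the rule, which lowers such values. The odontoblast genes Dmp1 and Phex were near 0 in members, with 6.90 and 2.14 CPM and 5.06 and 2.86 CPM. Members with at least 3 Dspp UMIs numbered 79 and 26, and had Calb1 at 2803 and 3581 CPM and Amelx at 2405 and 2724 CPM, against 161 and 115 CPM of Calb1 in members with none.

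Member cells were split by their own enamel transcripts into ranges under 10, from 10 to 50 and from 50 to 100 UMIs of Amelx, Ambn and Enam per 10000. The ranges are bands of a continuum and not cell types. The lowest band held 89.3% of control (87.5 to 91.0%) and 91.8% of deletion members (89.9 to 93.4%), the middle one 7.85% and 5.66%, and the highest 2.80% and 2.57%. From the lowest to the middle band Dspp went from 60.6 to 580 CPM in the control and from 24.1 to 399 CPM in the deletion library. Calb1 went from 211 to 1943 CPM and from 119 to 1096 CPM, and in the highest band it stood at 2795 and 2794 CPM. Sorbs2, Pard3b, Ctnna2, Plxna2 and Plxnc1, genes of the cytoskeleton, polarity, junctions and semaphorin reception, also stood higher in the middle band in both libraries. The imprinted RNA H19 went the other way, from 221 to 10.1 CPM and from 209 to 35.2 CPM, as did Enpp2, Nfib, Tnfrsf19, Slc39a8, the desmosomal cadherin Dsc3 and Cdk5rap3.

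The lower levels of these genes were already present in the lowest band. There Dspp had count ratios between 0.31 and 0.50, Calb1 between 0.51 and 0.63 and Sox21, at 33.7 and 11.4 CPM, between 0.24 and 0.47. Even among the 845 and 709 members with no UMI of the enamel genes, Calb1 had 123 and 58.8 CPM and Sox21 24.8 and 5.62 CPM. In the highest band, of 36 and 25 cells, the interval of Calb1 reached from 0.86 to 1.16 and that of Sox21 from 0.40 to 1.76. Dspp and Clu were lower there too, with 178 and 24 UMIs (979 and 267 CPM, a ratio between 0.17 and 0.42) for Dspp and 770 and 479 CPM (0.43 to 0.88) for Clu. With the bands weighted equally in both libraries, an added choice, Calb1 had a log2 ratio of -0.63, its smallest among all settings. The fine grain of stages inside a band may still differ between libraries and was not tested.

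**Figure D3:**
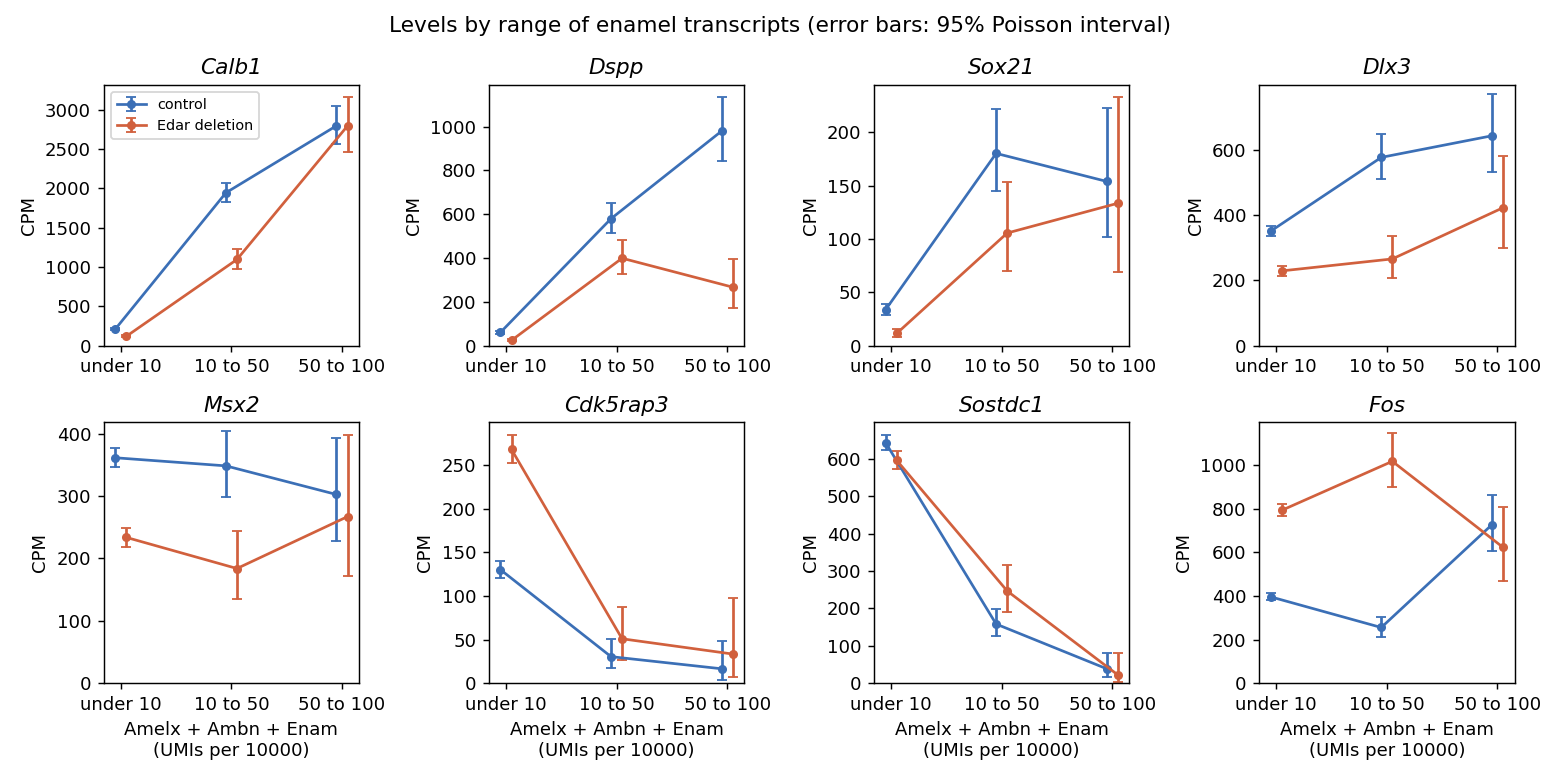
Levels (CPM) of 8 genes in members under 10, from 10 to 50 and from 50 to 100 enamel UMIs per 10000, for each library with 95% Poisson intervals. Calb1 climbs from 211 to 2795 CPM in the control and from 119 to 2794 CPM in the deletion library, and Cdk5rap3 falls from 130 to 16.5 CPM and from 268 to 33.4 CPM. In the highest band Cdk5rap3 rests on 3 UMIs in each library, with a count ratio between 0.27 and 15.1.

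The homeobox genes Dlx3 and Msx2, regulators of ameloblast genes, were lower past 1.5-fold. Dlx3 came as near 0 as a log2 ratio of -0.49 with cells thinned to 2000 UMIs. Msx2 came as near as -0.54 in cells with Xist only, and both values are under 1.5-fold. Dlx3 had 377 CPM in control (362 to 392, 2455 UMIs) and 236 CPM in deletion members (221 to 251, 990 UMIs), and Msx2 359 CPM (345 to 374, 2340 UMIs) and 231 CPM (217 to 246, 972 UMIs). After thinning, Dlx3 was found in 48.0% and 35.5% of members and Msx2 in 47.4% and 32.5%. Unlike Calb1, Msx2 varied little along the enamel bands of the control, with 362, 349 and 303 CPM. It was also lower in the other epithelium, with 311 and 172 CPM in enamel-rich cells, 361 and 231 CPM in Edar-positive cells and 356 and 249 CPM with few marker UMIs, so the direction was not particular to members. Dlx3 had 723 and 416 CPM in enamel-rich cells, 224 and 156 CPM with few marker UMIs, and 242 and 257 CPM in Edar-positive cells, where the count ratio lay between 0.82 and 1.35. Endothelial cells had 24.8 and 24.7 CPM of Dlx3 and 34.5 and 28.0 CPM of Msx2.

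Of the 23 measured regulators of this lineage, 9 had an interval below 1 and 3 one above 1, and the median log2 ratio was -0.10 against -0.06 over all genes. Besides Dlx3, Msx2 and Sox21, those below were Trp63 (279.5 and 212 CPM), the master gene of stratified epithelium, Dlx2 (435 and 332 CPM), Satb1, Sp6, Klf4 (476 and 435 CPM) and Dlx5 (126 and 111 CPM). Those above were Tbx1 (60.3 and 87.2 CPM), which keeps dental epithelium proliferating, Runx1 (57.8 and 76.7 CPM) and Tfap2a (59.7 and 73.8 CPM). Runx1 did not hold within sexes, with 88.6 and 81.6 CPM in cells with Xist only and 56.1 and 58.0 CPM with Y-linked UMIs only.

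Of 14 measured enamel genes outside the rule 6 had an interval below 1 and none above, with a median of -0.19. Amelx and Ambn, whose levels the rule limits, had 356 and 281 CPM and 87.0 and 61.4 CPM. The 6 genes were Dspp, Lamb3 (240 and 189 CPM) and Col17a1 (63.5 and 49.1 CPM), both parts of the anchorage of epithelium to its basement membrane, Stim1 (153 and 115 CPM), a calcium sensor of the endoplasmic reticulum, Mmp20 (9.51 and 3.33 CPM), the enamel protease, and Wdr72 (7.21 and 3.57 CPM). In enamel-rich cells, by contrast, Mmp20 had 677 and 711 CPM with a count ratio between 0.91 and 1.21. The median of the list with the genes of the rule was 0.13 there over 17 genes, against -0.22 in members, and whether it differs between the sets was not tested.

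Shh, the Hedgehog ligand of dental epithelium and a gene of the rule, stood at 586 CPM in control and 437 CPM in deletion members (3821 and 1836 UMIs), with a count ratio between 0.71 and 0.79. It was found in 79.9% and 70.3% of members, and after thinning in 62.0% and 49.8%. The other 3 marker genes were at 1287 and 1272 CPM (Vwde), 1001 and 1006 CPM (Igfbpl1) and 513 and 576 CPM (Vwa2). Shh had 354 and 133 CPM in enamel-rich cells and 796 and 745 CPM in Edar-positive cells. Genes that report Hedgehog reception had intervals that included 1, with Gli1 at 82.4 and 82.4 CPM and Ptch1 at 162 and 152 CPM. Of 14 measured Hedgehog genes outside the rule none had an interval below 1 and 2 had one above, Scube3 (412 and 477 CPM), which helps release the ligand, and Hhip (4.29 and 10.5 CPM), an inhibitor. Members without a Shh UMI, 258 and 288 cells, had summed S phase levels of 1957 and 1624 CPM, against 1277 and 1521 CPM in the 1028 and 683 cells with one. Cells without Shh could enter only through the other 3 marker genes, so the levels of Shh and this split describe the choice of cells.

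Genes of the receptor's own pathway lay near the median of all genes. Of 15 measured members of the EDAR pathway, 3 had intervals below 1, Map3k7 (84.4 and 70.0 CPM), Chuk (49.8 and 41.0 CPM) and Cyld (32.1 and 25.2 CPM), and none above. The adaptor Edaradd had 102 and 113 CPM. Of 18 measured EDAR and NF-kB targets, 3 had intervals above and 4 below 1, with a median of -0.04. Ccnd1 had 608 and 675 CPM, Ccn2 57.5 and 72.6 CPM and the chemokine Cxcl1 3.99 and 11.4 CPM. The feedback inhibitor Nfkbia stood at 147 and 155 CPM. Sostdc1, which antagonises BMP and Wnt ligands, stood at 590 and 562 CPM. The targets below were Cdkn1a (178 and 120 CPM), Wnt10a (68.1 and 54.5 CPM), Bmp4 (60.3 and 50.0 CPM) and Wnt10b (25.6 and 18.3 CPM). These 4 also belong to the enamel knot list, in which, without Shh, they were the 4 of 10 measured genes with intervals below 1, and Fgf9 (63.5 and 82.2 CPM) and Slit3 (8.28 and 14.8 CPM) had intervals above it.

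The FGF list leaned the other way, with 6 of 16 measured genes above and 2 below and a median of 0.16. Those above were the feedback inhibitors Spry4 (8.44 and 21.0 CPM), Spry1 (55.7 and 65.7 CPM), Spred1 (35.0 and 49.8 CPM) and Dusp6 (65.0 and 95.7 CPM), the target gene Etv4 (48.9 and 74.5 CPM), and the ligand Fgf9. The receptors Fgfr1 (957 and 818 CPM) and Fgfr2 (242 and 222 CPM) were those below. None of them passed 1.5-fold at the minimum level of 50 CPM. The median was 0.34 within cells with Xist only and 0.00 within those with Y-linked UMIs only. Etv4, Spry4 and Dusp6 kept intervals above 1 in both, with 36.0 and 69.5 CPM and 53.6 and 84.4 CPM for Etv4. Endothelial cells had Spry4 at 111 and 116 CPM and Dusp6 at 452 and 497 CPM, and Etv4 at 10.1 and 8.99 CPM.

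The other signalling lists had medians near that of all genes. In the Wnt list and in the BMP and TGF-beta list, intervals below 1 were more frequent than the 15.2% of all genes. Their medians were -0.07 and -0.05, and the share of such intervals depends on the level of the genes. In the Wnt list 8 of 31 measured genes had intervals below and 2 above 1, with Ctnnb1 at 1932 and 1784 CPM, Wnt3a at 125 and 94.8 CPM, Wnt4 at 63.3 and 51.2 CPM and the target gene Axin2 at 27.1 and 26.7 CPM. The antagonist Sfrp5, a marker of cells nearer the cervical loop, had 18.9 and 7.14 CPM in all, 0.923 and 5.86 CPM with Xist only and 26.0 and 14.5 CPM with Y-linked UMIs only, so its direction turned with the sex of the cells. In the BMP and TGF-beta list 10 of 28 were below and 2 above. Tgfbr2, the type II receptor of TGF-beta, had 104 and 62.2 CPM and was past 1.5-fold, Smad6 had 55.8 and 36.7 CPM, Id4 167 and 131 CPM, Id2 478 and 420 CPM and Bambi 351 and 291 CPM, while Id3 had 785 and 895 CPM and Smad7 85.4 and 109 CPM. In the Notch list, of 14 genes, Hey1 was below (87.7 and 59.8 CPM) and Hes1 above (149 and 169 CPM).

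Genes of the secretory pathway more often had intervals below 1 than all genes did, by small margins, while those of polarity were near the share of all genes. In the secretory pathway 16 of 31 measured genes had intervals below 1 and none above, against 15.2% of all genes, but the median was -0.09 and none passed 1.5-fold. The 2 shares are not on equal terms, since these 31 genes summed to 12853 CPM in control members and higher counts give narrower intervals. With the median log2 ratio of genes at 50 CPM set to 0, the list median was -0.02. Hsp90b1 had 2029 and 1898 CPM, Calr 1441 and 1303 CPM, Xbp1, a driver of secretory capacity, 102 and 84.5 CPM, and Sec24d 35.3 and 27.4 CPM. In basement membrane and adhesion, leaving out Cdh1 as a gene of the rule, 11 of 36 were below and 5 above, with Gja1, the main gap junction protein, at 1035 and 819 CPM, and Fras1 at 1005 and 893 CPM, and Frem1, Nid1 (163 and 180 UMIs, 42.9 CPM with the deletion), Itgb1 (507 and 549 CPM), Lamb1 (129 and 145 CPM) and Cldn1 (27.0 and 34.5 CPM) above. Gja1 had 998 and 772 CPM in epithelium with few marker UMIs and 952 and 686 CPM in enamel-rich cells. In polarity 8 of 24 had log2 ratios above 0 and 5 had intervals below 1, with the planar polarity genes Vangl2 at 237 and 179 CPM and Celsr1 at 118 and 91.9 CPM, and Cdc42 (205 and 231 CPM) was above.

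**Figure D4:**
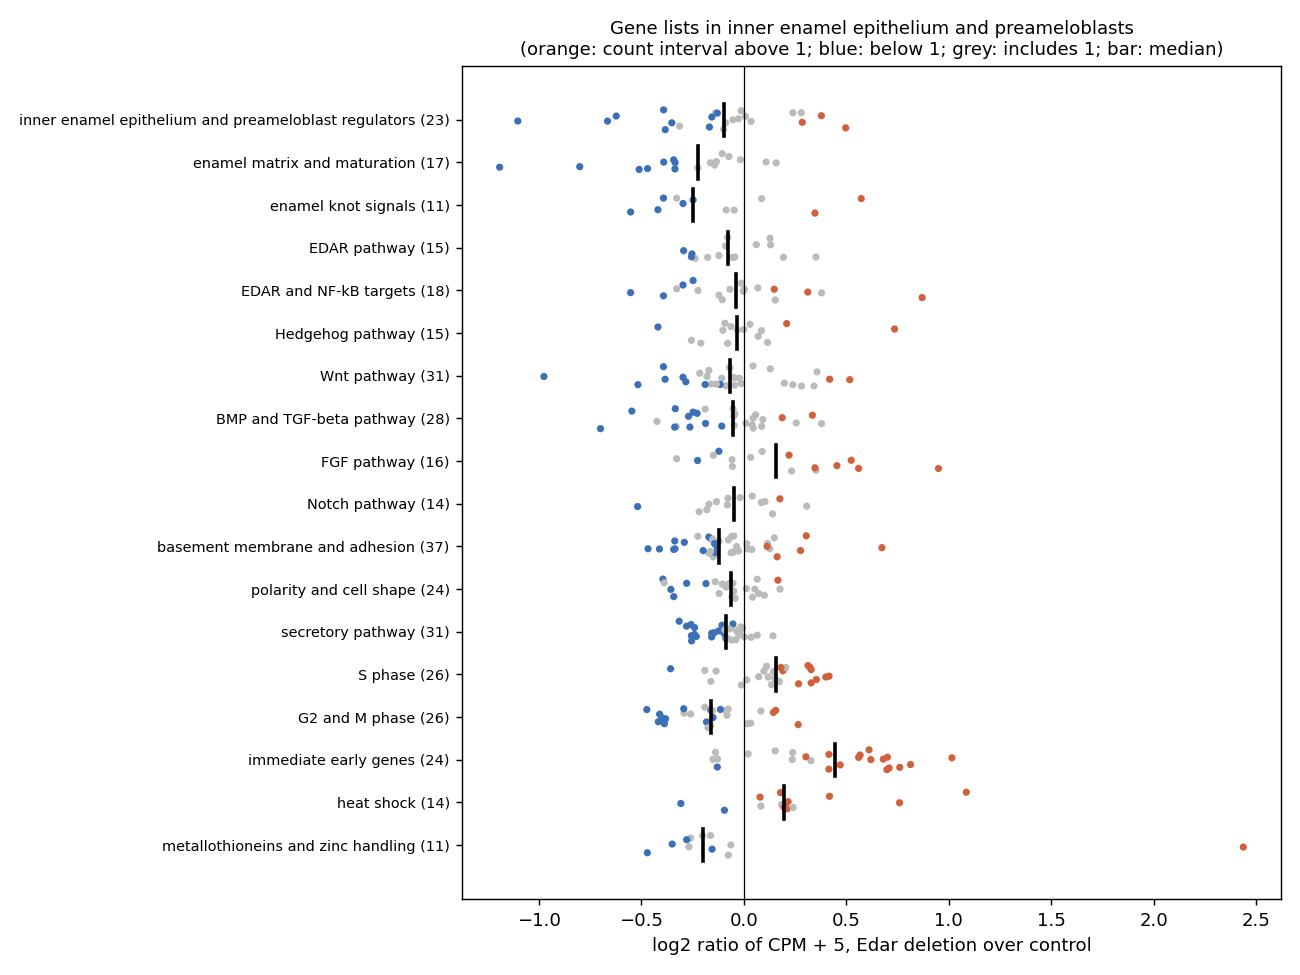
Log2 ratios of (CPM + 5), deletion over control, for the measured genes of 18 lists in member cells, genes of the rule included. Each point is a gene and the bar of a list is its median, from -0.25 for enamel knot signals to 0.44 for immediate early genes.

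S phase transcripts were found in more deletion members once depth was made equal. With cells thinned to 2000 UMIs and 64 control and 80 deletion members too shallow to enter, at least 2 UMIs of S phase genes were found in 48.7% (45.9 to 51.5%) and 56.9% (53.6 to 60.2%), and of G2 and M phase genes in 43.0% (40.2 to 45.8%) and 48.6% (45.3 to 51.9%). Unthinned, the shares were 69.9% and 69.9% for S phase and 55.7% and 58.1% for G2 and M phase. Cells with neither were 38.6% and 29.7% after thinning. Of 26 measured S phase genes 10 had intervals above 1 and 1 below, with a median of 0.16, led by Uhrf1 (65.3 and 83.3 CPM), Rrm2 (47.7 and 61.2 CPM), Slbp (45.2 and 57.9 CPM) and Chaf1b (25.3 and 35.0 CPM). The G2 and M phase genes went against the share of cells, with 11 of 26 below and 3 above and a median of -0.16, so no order between the libraries is read from that share.

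Within G2 and M phase the genes below included Ccna2 (94.5 and 66.7 CPM), Ccnb1 (82.2 and 66.2 CPM), Ccnb2 (63.0 and 46.2 CPM) and Cdc20 (71.3 and 52.9 CPM), which act in mitosis. Top2a (135 and 163 CPM), Mki67 (159 and 176 CPM) and Cenpf (123 and 138 CPM) were above. Ccna2 had 71.1 and 68.6 CPM in cells with Xist only and 114 and 54.1 CPM with Y-linked UMIs only. The S phase share after thinning was 39.2% and 54.8% in cells with Xist only and 52.4% and 64.6% with Y-linked UMIs only, so that the sexes also differed inside each library. From the lowest to the highest enamel band it was 51.2%, 29.5% and 19.4% for control members, and 58.6%, 41.2% and 28.6% for deletion members. The inhibitors of the cycle Cdkn1a and Cdkn1b had 178 and 120 CPM and 226 and 181 CPM.

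Immediate early genes, which respond within minutes to growth factors and to tissue dissociation, had the median farthest from 0 among the 18 plotted lists, with 15 of 24 measured genes above, 1 below and a median of 0.44. Fos had 394 CPM in control (379 to 410) and 803 CPM in deletion members (776 to 830), Egr1 329 and 561 CPM, Fosb 198 and 327 CPM, Ier2 142 and 233 CPM, Zfp36 101 and 167 CPM and Jun 191 and 294 CPM. Klf4, a member of this list and of the lineage regulators, was the 1 below. The direction was shared by other cells of the libraries, with list medians of 0.56 in enamel-rich cells, 0.39 in Edar-positive cells, 0.46 with few marker UMIs and 0.36 in endothelial cells, where Fos had 1412 and 1673 CPM. Members with at least 3 Fos UMIs were 19.98% and 31.2%, and had Calb1 at 125 and 121 CPM against 582 and 376 CPM in members with none. They were also deeper, with medians of 5907 and 4808 UMIs against 4143 and 3264 UMIs. Of the called doublets they held 16 and 18, against 2 and 1 in members with none. The part of tissue dissociation in these values was not tested.

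Heat shock genes had 9 of 14 above and 2 below, with a median of 0.20. Hspa1a had 27.8 and 64.5 CPM and its near-identical copy Hspa1b 37.9 and 67.6 CPM, so that the split of reads between them is uncertain. Hspa1a also stood higher in endothelial cells, at 27.4 and 51.7 CPM. The constitutive chaperones Hsp90ab1 (2719.8 and 3080.0 CPM), Hspa8 (1079.5 and 1141 CPM) and Hsp90aa1 (679 and 779 CPM) had intervals above 1 with smaller ratios. Ppp1r15a, which restores translation after stress, had 34.8 and 59.8 CPM, and Cmss1 72.2 and 114 CPM. Of 15 measured genes of hypoxia and glycolysis, 2 were above and 3 below, and of 15 of apoptosis and p53, 1 and 4.

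Transcripts of other cell types were present in members and moved with some results. Of 10 measured mesenchyme markers outside the rule 4 had intervals above 1 and none below, and all 13 together summed to 2391 and 2258 CPM. Col3a1 had 32.7 and 85.7 CPM, Lum 21.8 and 42.9 CPM, Twist1 6.60 and 16.7 CPM and Prrx1 3.68 and 11.4 CPM, while Col1a2, like Col3a1 a gene of the rule, had 819 and 583 CPM. Col3a1 was found in 8.86% of control and 17.6% of deletion members and in 20.2% and 29.6% of endothelial cells, where it had 329 and 492 CPM. Igfbp7, a gene of vessels, had 22.2 and 51.0 CPM in members against 3072 and 2390 CPM in endothelium, and 67.8% of its UMIs in deletion members were in 10 cells. Its log2 ratio of 1.04 was 0.49 with at least 2 and 0.53 with at least 5 marker UMIs. All 6 measured endothelial markers summed to 42.6 and 64.8 CPM, 3 of them with intervals above 1.

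Leukocyte markers were higher in control members. The 6 measured genes summed to 71.0 and 32.4 CPM, 4 of them with intervals below 1, and C1qc had 138 and 11 UMIs with 92.8% of the former in 10 cells. Outside the lists, and singled out after their values were seen, the mast cell genes Cpa3, Cma1 and Mcpt4 had 285, 188 and 164 UMIs in control members. The counts 284, 188 and 164 came from a single cell each, and in deletion members they were 1, 0 and 0. The mural genes Rgs5 and Acta2 had 14.3 and 30.2 CPM and 9.97 and 14.8 CPM, but Rgs5 had 48.0 and 12.6 CPM in cells with Xist only. No erythroid gene of the list reached 5 CPM in members. Without the cells that held a UMI of a blood, endothelial or oral keratin gene, 6 of the 7 genes stayed higher past 2-fold at the minimum level, all but Igfbp7, and both Dspp and Ddx3y stayed lower. Igfbp7 then had a log2 ratio of 1.17, Col3a1 1.38, Hspa1a 1.10, Cdk5rap3 1.11 and Dspp -1.05.

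The 28 genes past 1.5-fold other than Xist and Ddx3y were compared again within cells of 1 sex. They had been chosen in all members, which include both classes, so agreement between the classes is partly fixed by the choice. All 28 had the same sign in both classes, 26 had intervals that excluded 1 in both, and 23 were past 1.5-fold in both. Igfbp7 and Slc26a2 were the exceptions to the first of these counts of intervals. The sexes also differed inside the control, where Fos had 187 CPM in cells with Xist only and 434 CPM with Y-linked UMIs only, and Calb1 661 and 372 CPM. With both sexes weighted equally, an added choice, Calb1 stood at -1.25, Fos at 1.38 and Cdk5rap3 at 1.27, and Calb1, Dspp, Sox21 and Diras2 were lower past 2-fold. A class of sex holds pups of unknown number, so the sex and the pup cannot be told apart.

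**Figure D5:**
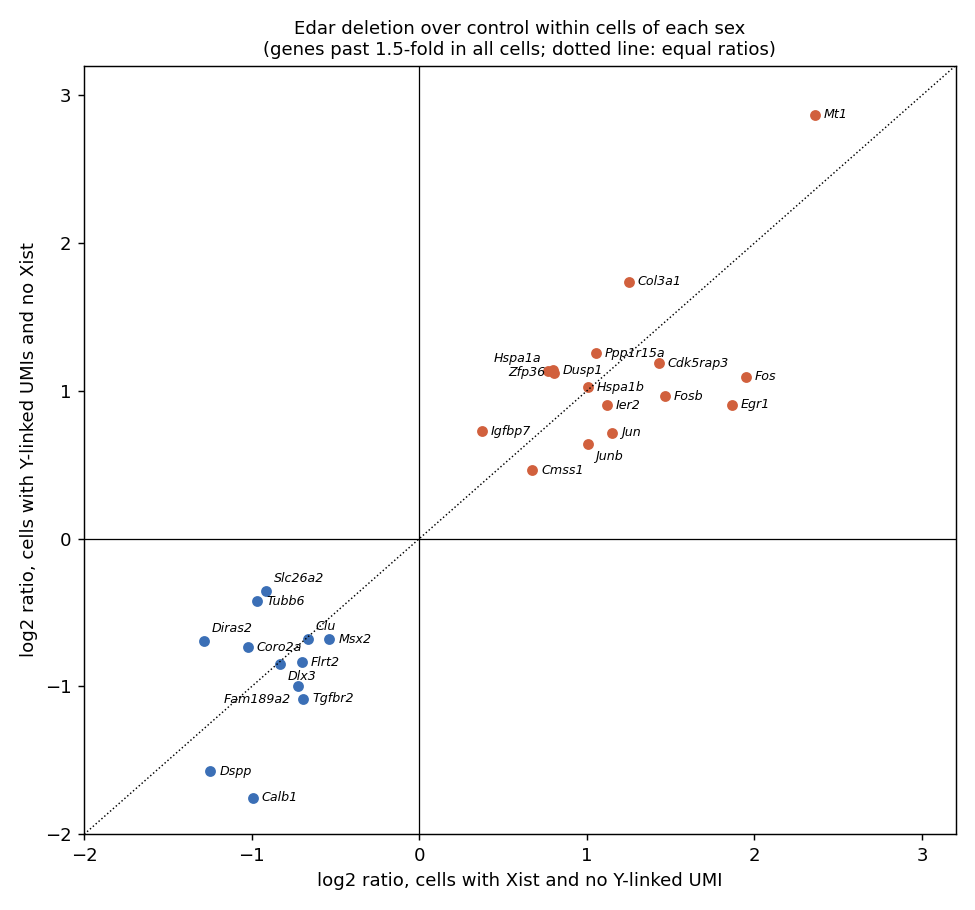
Log2 ratios of (CPM + 5), deletion over control, of the 28 genes past 1.5-fold in cells with Xist and no Y-linked UMI (x axis) and in cells with Y-linked UMIs and no Xist (y axis). Each of the 28 has the same sign on both axes, and Fos and Egr1 lie to the right of the dotted line of equal ratios. The genes were chosen in all members, which include both classes.

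The remaining genes past 1.5-fold fell into different patterns over the sets. Flrt2, a membrane protein that binds unc-5 receptors and FGF receptors, had 105 and 61.7 CPM in members and 182 and 112 CPM in Edar-positive cells. Diras2, a small GTPase, had 54.3 and 31.7 CPM and 94.7 and 58.6 CPM. Tubb6, a tubulin, had 104 and 60.5 CPM in members and 88.7 and 110 CPM in endothelial cells, where it went the other way. Slc26a2, a sulfate transporter, had 102 and 66.4 CPM in members and 157 and 153 CPM in enamel-rich cells. Tgfbr2 had 322 and 199 CPM in enamel-rich cells and 361 and 316 CPM in endothelial cells, and Fam189a2 287 and 241 CPM and 15.4 and 8.49 CPM.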

How the data were processed

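The deposited files hold raw counts of unique molecular identifiers per gene and cell barcode, 1 matrix per library, which the authors made with STARsolo on mm10, per the submitters' processing notes. Its version, the annotation and the barcode filter were not given in the sources used here. Summed counts were scaled to CPM, and ratios are log2 of (CPM + 5). Shares have exact Clopper-Pearson intervals, counts exact Poisson intervals and count ratios conditional binomial intervals, all at 95% and for counting error only. A gene was called at 50 CPM in 1 library, a 2-fold (or 1.5-fold) ratio and an interval that excluded 1. These steps were tested on simulated Poisson counts, which hold no clustering of UMIs in single cells, so its effect on the intervals was not tested. The called genes, the 20 genes that most set members apart from other epithelium and the genes of the lists (counted from 5 CPM) were named, and examples among them were chosen after their values were seen. Members and lists were chosen with earlier results of these data known. Scrublet in scanpy 1.11.5 called doublets, which were kept and removed as an alternative. For shares, cells were thinned to 2000 UMIs with a fixed seed. Member cells held 6519676 UMIs in the control and 4199401 UMIs with the deletion. The libraries shared 4 barcodes. Alternatives changed the thresholds of the rule, the scaling and the pseudocount, and split cells by sex. Calculations used numpy 2.4.6, scipy 1.17.1, pandas 2.3.3 and matplotlib 3.10.9.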

Additional observations from a re-analysis of the deposited data

How the results depend on the processing

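No paired analysis was possible because each group was 1 library. Among epithelium, the members' share in the control (56.6%) was 59.7% with at least 2 and 50.6% with at least 5 marker UMIs, 65.2% with any number of Edar UMIs, 41.3% with collagens at most 20 per 10000, 52.7% with enamel transcripts under 20 per 10000, 63.1% with at least 1000 genes and at most 10% mitochondrial UMIs, 53.1% with cells thinned to 2000 UMIs and 59.5% in cells with Y-linked UMIs only. In the deletion library (53.4%) the same settings gave 58.3%, 45.9%, 57.95%, 41.99%, 50.4%, 61.6%, 50.7% and 49.3%, and cells with Xist only gave 57.7%. The difference of -3.14 points was -10.1 points in cells with Y-linked UMIs only.

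The 7 genes higher past 2-fold became 4 with collagens at most 20 per 10000 and with thinned cells, 15 in cells with Xist only, 13 in cells with Y-linked UMIs only, and 12 with no minimum level and with equal weight of both sexes. The 2 lower genes became 4 with the stricter limits on genes and mitochondrial UMIs, 16 with Xist only, 12 with Y-linked UMIs only, 16 with no minimum level, 1 by the mean of per-cell CPM and 4 with equal weight of both sexes. The 17 genes higher past 1.5-fold became 34 with thinned cells, 55 with Xist only, 51 with Y-linked UMIs only, 111 with no minimum level and 27 with equal weight of both sexes, and the 13 lower genes 43, 117, 118, 113 and 47, and 20 with the stricter limits. The share with G2 and M phase transcripts, 43.0% and 48.6%, was 55.7% and 58.1% unthinned and 35.4% and 39.5% with at least 3 UMIs. Log2 ratios that turned were those of Ddx3y, 0.067 with Y-linked UMIs only and 0.065 with equal weight of both sexes, of Xist, -0.10 with Xist only and -0.10 with equal weight of both sexes, and of Hspb1, 0.059 with Y-linked UMIs only. Mt2, whose interval included 1, turned from -0.26 to 0.34 with thinned cells, 0.21 with Xist only and 0.026 by the mean of per-cell CPM. The cause was not tested.

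Apart from these, 65 values of shares and counts moved by less than their error or 1.5 times. Of single genes and lists, 736 values did so and 111 moved without turning. Equal weights of enamel bands, of cell cycle bands and of both sexes, and leaving out cells with blood, endothelial or oral keratin UMIs, were chosen after seeing the data. With 1 library per group no interval covers the spread between animals. Splitting members by sex left 147 to 537 cells a class, which limits precision there. Genes under about 5 CPM could not be compared at this depth.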
